A study of Danio rerio with 19 samples.

Results

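The genes described here are *fabp6* (ENSDARG00000044566), *anxa4* (ENSDARG00000036456), *anxa11a* (ENSDARG00000077383) and *cldni* (ENSDARG00000054616), 4 of the 31901 gene IDs counted in each library. They were chosen by name for their high counts in cells sorted for weak green fluorescence, so every contrast of those cells with another group is given for them as a description, with no test. The study sorted cells by FACS from the main pancreatic islets of adult zebrafish of 6 to 10 months, 2 to 4 fish per pool, to compare insulin cells that return after β-cell loss with the islet cells of controls. All fish carried both transgenes, Tg(sst1.1:eGFP), with green fluorescence driven by the somatostatin 1.1 promoter, and Tg(ins:NTR*-P2A-mCherry), with a nitroreductase and red fluorescence driven by the insulin promoter. The GFPlow group (3 libraries) holds green cells of low fluorescence, the GFPhigh group (3 libraries) green cells of high fluorescence and the β-cell group (7 libraries) red cells, all from fish kept in 0.16% DMSO for 18 hr. The bihormonal group (6 libraries) holds cells both green and red from fish treated for 18 hr with 2.5 µM nifurpirinol (NFP), a prodrug that nitroreductase turns toxic, and taken at 20 days post treatment (dpt). The control groups are recorded at the same 20 dpt. The sort selects on fluorescence and not on cell type, and the labels do not say whether a fish gave cells to more than 1 library.

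These genes are known from lining and secretory epithelia. Fabp6 is the fatty acid binding protein that carries bile acids inside absorptive cells of the ileum. Annexins bind phospholipid membranes when calcium rises, and Anxa4 is the antigen of the 2F11 antibody, which is used in zebrafish to stain bile ducts, pancreatic ducts and secretory cells of the gut. Annexin A11 takes part in membrane trafficking and binds the calcium sensor PDCD6 in mammals. Claudins, of which *cldni* is a fish member, form the strands of tight junctions that seal neighbouring epithelial cells. Islet endocrine cells arise from the same endodermal epithelium as ducts and acini and keep some of its adhesion molecules.

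Total counts were 5599246 to 9017892 in the GFPlow libraries and 5599246 to 18077658 over all 19. The labelled identity of the GFPlow sort was checked against hormone genes. *sst2*, the somatostatin of a second δ-cell type, was at 1627460, 2101880 and 1428800 normalized counts in GFPlow replicates 1, 2 and 3 and at no more than 38833 in any other library. A normalized count is a count divided by the library's scaled size and multiplied by the mean scaled size. *sst1.1* averaged 463957 in GFPlow and 5654560 in GFPhigh cells, a log2 difference of -3.61 (standard error 0.916, adjusted p = 0.0079). Adjusted p-values are those of the edgeR quasi-likelihood fit, by Benjamini and Hochberg's method. *ghrl*, the hormone of ghrelin cells, also stood high in GFPlow, between 34517 and 61714 against 39.4 to 1718 elsewhere. The labels do not say that replicates came from separate sorting days, so p-values measure the spread between these libraries. In bulk libraries, fewer cells of a type and less RNA per cell cannot be told apart.

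*fabp6*, the bile acid carrier, was at 1698, 1448 and 1445 normalized counts in GFPlow replicates 1, 2 and 3, from 1406, 1493 and 1013 reads. In GFPhigh replicates 1, 2 and 3 it was at 7.26, 1.18 and 8.42, from 6, 1 and 8 reads. The lowest, median and highest bihormonal libraries held 0, 4.29 and 19.2, and those of β-cells held 0, 0.678 and 5.62. The 3 GFPlow libraries therefore lay apart from all 16 others, and outside GFPlow no library had more than 23 reads of the gene. A count of 0 in bihormonal replicate 2 and in β-cell replicates 2, 3 and 4 allows a level of up to 6.97, 2.44, 2.75 and 2.60 by counting error alone. Group means were 1530 ± 145 (SD, n = 3) in GFPlow, 5.62 ± 3.89 (SD, n = 3) in GFPhigh, 1.77 ± 2.20 (SD, n = 7) in β-cells and 6.07 ± 6.81 (SD, n = 6) in bihormonal cells. *fabp6* passed the filter on low values, a mean of at least 10 over the 19 libraries, only through its GFPlow libraries.

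*anxa4*, the duct and secretory cell antigen, was at 4648, 4994 and 3893 normalized counts in GFPlow replicates 1, 2 and 3. GFPhigh replicates 1, 2 and 3 held 37.5, 82.5 and 45.3. Bihormonal libraries spanned 13.9 to 412 with a median of 36.8, and β-cell libraries 107 to 449 with a median of 221. Unlike *fabp6*, *anxa4* was thus read in every library, and the highest values outside GFPlow were in β-cells. Means were 4512 ± 563 (SD, n = 3) in GFPlow, 55.1 ± 24.1 (SD, n = 3) in GFPhigh, 250 ± 143 (SD, n = 7) in β-cells and 114 ± 158 (SD, n = 6) in bihormonal cells. The bihormonal mean rests on replicates 5 and 6, at 171 and 412, while the other 4 libraries held 13.9 to 46.1.

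*anxa11a*, the trafficking annexin, was at 5396, 5985 and 4951 normalized counts in GFPlow replicates 1, 2 and 3. It was at 830, 837 and 698 in GFPhigh replicates 1, 2 and 3. Bihormonal libraries spanned 712 to 950 with a median of 892, and β-cell libraries 505 to 768 with a median of 593. It was the gene of the 4 with a broad level in every sort, from 505 to 950 in all 16 other libraries. Means were 5444 ± 518.6 (SD, n = 3) in GFPlow, 788 ± 78.5 (SD, n = 3) in GFPhigh, 605 ± 84.5 (SD, n = 7) in β-cells and 869 ± 85.1 (SD, n = 6) in bihormonal cells.

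*cldni*, the tight junction gene, was at 11017, 10069 and 9582 normalized counts in GFPlow replicates 1, 2 and 3. It was at 62.9, 54.2 and 141 in GFPhigh replicates 1, 2 and 3. Bihormonal libraries spanned 2.32 to 170 with a median of 20.2, and β-cell libraries 0.814 to 24.8 with a median of 6.74. All GFPhigh libraries exceeded all β-cell libraries, an arrangement that 10.9% of genes showed, and the bihormonal libraries spread across both. Means were 10222 ± 730 (SD, n = 3) in GFPlow, 86.1 ± 47.8 (SD, n = 3) in GFPhigh, 8.15 ± 8.15 (SD, n = 7) in β-cells and 49.9 ± 65.4 (SD, n = 6) in bihormonal cells.

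**Figure D1:**
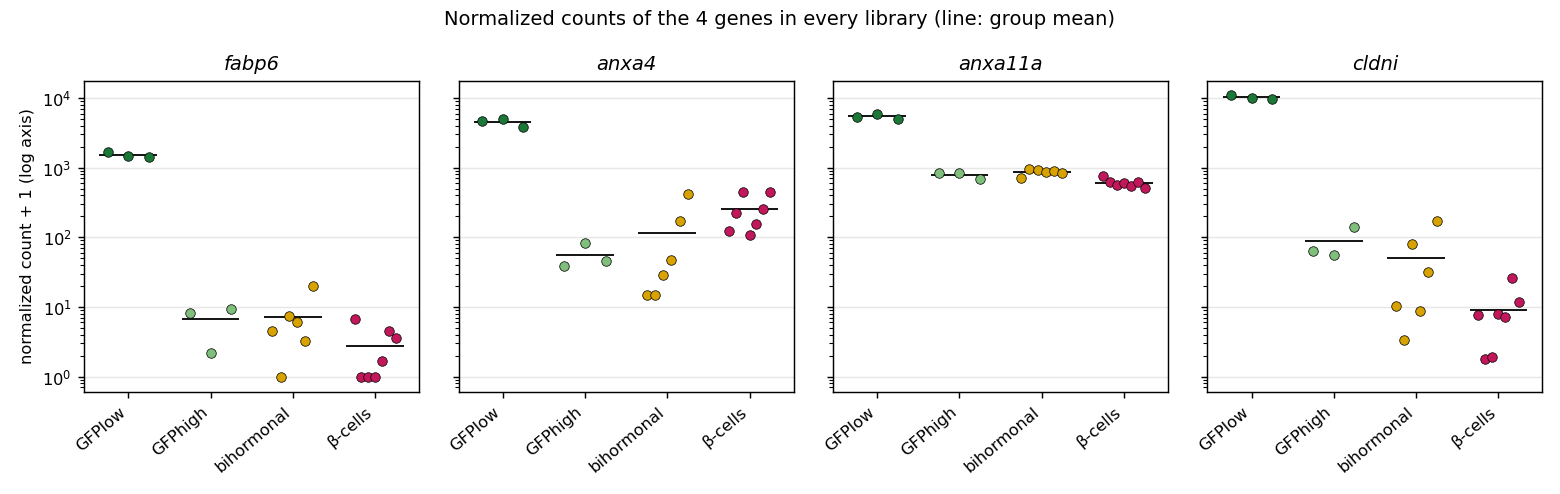
Normalized counts plus 1 on a log axis for each of the 4 genes, with 1 point per library by group and a line at the group mean. The 3 GFPlow libraries sit above all 16 others for each gene, with *anxa11a* between 505 and 950 and *fabp6* between 0 and 19.2 in those others.

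The margin between GFPlow and the rest, which is what chose the genes, differed between them. The lowest GFPlow library was 75.2 times the highest other library for *fabp6*, 56.3 times for *cldni*, 8.66 times for *anxa4* and 5.21 times for *anxa11a*. The highest other library was bihormonal replicate 6 for *fabp6* and *cldni*, bihormonal replicate 2 for *anxa11a* and β-cell replicate 7 for *anxa4*. Of 14693 genes tested, 6.97% had every GFPlow library above all 16 others, and 1.85% did so by more than 5-fold. Against GFPhigh the fitted log2 differences were 8.04 for *fabp6*, 6.35 for *anxa4*, 2.79 for *anxa11a* and 6.88 for *cldni*. Against β-cells they were 9.75, 4.17, 3.17 and 10.27 in the same order, and against bihormonal cells 7.76, 5.27, 2.65 and 7.59. The 3 comparisons share the GFPlow libraries. The genes varied little within the sort, with a coefficient of variation over the 3 GFPlow libraries of 9.51% for *fabp6*, 12.5% for *anxa4*, 9.53% for *anxa11a* and 7.14% for *cldni*. The median over the 843 tested genes with a GFPlow mean of at least 1000 was 13.9%.

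GFPlow replicates 2 and 3 and β-cell replicates 2 and 3 carry neighbouring library numbers, and no GFPlow library neighbours a GFPhigh or bihormonal one. In that run of neighbours, *fabp6* had 1493 and 1013 reads in GFPlow and 0 in both β-cell libraries, and *cldni* had 10385 and 6719 reads against 1 in each. *anxa4* stood at 4994 and 3893 normalized counts against 221 and 440. As the genes were chosen for their level in GFPlow, these values are a description and were not tested.

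The differences between the other 3 sorts were not what chose the genes, and they were tested for *anxa4*, *anxa11a* and *cldni*, which pass the filter without GFPlow as well. Those of *fabp6*, whose other 16 libraries average 4.10 normalized counts, are given as values with no test. Between bihormonal cells and β-cells, 1 of these 3 genes was called at an adjusted p under 0.05 and a fold above 2, against 13.2% of all genes tested. *cldni* was higher in bihormonal cells, with a log2 difference of 2.67 (standard error 0.696, adjusted p = 0.00816, edgeR). *anxa11a* passed the p threshold at 0.52 (standard error 0.128, adjusted p = 0.00507, edgeR) but lay under 2-fold, and *anxa4* had a difference of -1.10 (adjusted p = 0.239, edgeR). The fitted difference of *fabp6* was 1.99 (standard error 0.686), on 0 to 23 reads a library. Bihormonal replicate 6, which held the highest *fabp6*, *anxa4* and *cldni* of its group, decided these calls. Without it the log2 difference of *cldni* was 1.76 (adjusted p = 0.0639), that of *fabp6* was 1.16, and *anxa4* was lower in bihormonal cells by a log2 difference of -2.16 (adjusted p = 0.00636).

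Between GFPhigh cells and β-cells, 1 of the same 3 genes was called, against 18.1% of genes tested. *cldni* was higher in GFPhigh cells, with a log2 difference of 3.38 (standard error 0.777, adjusted p = 0.00332, edgeR), and was called under all 30 alternatives run. *anxa4* had a difference of -2.18 (standard error 0.839, adjusted p = 0.0604, edgeR), with every GFPhigh library below every β-cell library, an arrangement that 11.5% of genes showed. It passed the threshold under 9 of 30 alternatives, among them the omission of bihormonal replicate 1, 2 or 6, with adjusted p between 0.00935 and 0.312 over all of them. *anxa11a* had a difference of 0.38 (adjusted p = 0.0756, edgeR), and the fitted difference of *fabp6* was 1.71 (standard error 0.867).

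Between bihormonal and GFPhigh cells, 0 of the 3 genes were called by edgeR or by DESeq2, and 0 had an unadjusted p under 0.05, against 2.76% of genes called. The 95% intervals of the log2 difference ran from -0.65 to 2.83 for *anxa4*, from -2.30 to 0.89 for *cldni* and from -0.21 to 0.49 for *anxa11a*. Only that of *anxa11a* leaves out a 2-fold difference in both directions. In order of mean level, *cldni* thus ran GFPlow, GFPhigh, bihormonal and β-cells, with the GFPhigh and bihormonal means not separated beyond their spread. *anxa4* ran GFPlow, β-cells, bihormonal and GFPhigh cells, where no neighbours below GFPlow passed the test. By median its GFPhigh level (45.3) lay above its bihormonal level (36.8). *anxa11a* ran GFPlow, bihormonal, GFPhigh and β-cells, again with no called step between neighbours below GFPlow. *fabp6* ran in that order of means too, and its bihormonal and GFPhigh ranges overlapped, as did its GFPhigh and β-cell ranges. By median its GFPhigh level (7.26) lay above its bihormonal level (4.29).

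Traces of the 4 genes outside GFPlow were set beside the trace of *sst2*, each as a percent of its own GFPlow mean. *cldni* was at 0.531% to 1.38% of that mean in GFPhigh, 0.0227% to 1.67% in bihormonal cells and 0.00796% to 0.243% in β-cells. *sst2* was at 0.679% to 2.19%, 0.0298% to 2.26% and 0.0456% to 0.411% in the same groups. Per library, the *cldni* percent was 0.164 to 1.08 times the *sst2* percent and exceeded it in 1 of 16 libraries. *MAP3K15* (ENSDARG00000013310), a kinase gene that was high in GFPlow as well, ran 0.363 to 2.60 times the *sst2* percent and exceeded it in 8 of 16 libraries. *cdx4*, which the study lists with *MAP3K15* as a marker of *sst2* δ-cells, ran 0 to 26.9 times on few reads. It exceeded the *sst2* percent in 11 of 16 libraries and had 0 reads in 4. *fabp6*, on few reads, ran 0 to 2.26 times and exceeded the *sst2* percent in 2 of 16 libraries. Outside GFPlow, *cldni* and *fabp6* thus stayed near or under the trace that *sst2* left.

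Both annexins lay above the *sst2* percent in every β-cell library, while *anxa4* stayed near it in GFPhigh cells. *anxa4* ran 0.488 to 1.23 times the *sst2* percent in GFPhigh cells, 0.639 to 10.3 times in bihormonal cells and 13.9 to 214 times in β-cells. *anxa11a* was above the *sst2* percent in all 16 libraries, by 6.23 to 584 times. The trace of *ghrl* ran apart from that of *cldni*: β-cell replicate 2 held the highest *ghrl* outside GFPlow, 3.69% of its GFPlow mean, together with 1 read of *cldni* and 0 of *fabp6*. *sst2* itself was higher in GFPhigh cells than in β-cells (log2 difference 3.32, standard error 0.799, adjusted p = 0.00484, edgeR) and higher in bihormonal cells than in β-cells (2.11, standard error 0.695, adjusted p = 0.0377, edgeR). These are the comparisons in which *cldni* was called, and bihormonal replicate 6 had the highest *sst2* of its group as well as the highest *cldni*. That library also held the highest *gcga*, a glucagon gene, at 64986 normalized counts against 4039 to 28521 in the other bihormonal libraries. The part of *sst2*-rich or *gcga*-rich cells or RNA in those calls was not tested.

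**Figure D2:**
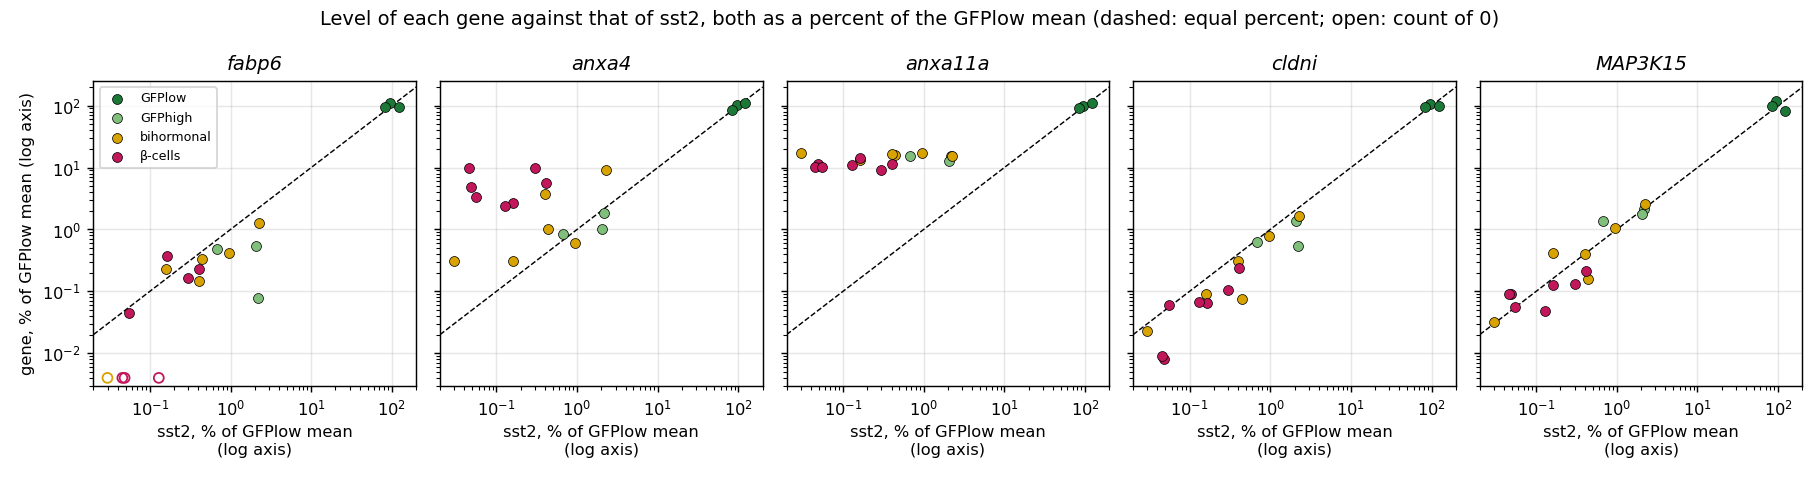
Each point is a library, with *sst2* on the x axis and the named gene on the y axis, both as a percent of the GFPlow mean on log axes, a dashed line at equal percent and open symbols for a count of 0. *cldni* lies near or under the line in all groups, *anxa4* above it in β-cells, and *anxa11a* above it in all 16 libraries outside GFPlow.

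The genes most like each of the 4 were ranked by Pearson's r of log2(normalized count + 1) over the 19 libraries. The 3 GFPlow libraries set most of each r, so it is given as a description. *cldni* was most like *sst2* (r = 0.983), followed by *AEBP1* (0.982), *MDK* (0.981), *kctd12.2* (0.977) and *MAP3K15* (0.976). Names in capitals are human symbols given to zebrafish genes. *MDK*, the growth factor midkine, averaged 3691 ± 434 (SD, n = 3) in GFPlow and 57.6 ± 31.5 (SD, n = 3) in GFPhigh. Among the genes most like *fabp6* were *arl3l2* (0.977), *tspan4b* (0.970), *SMOC2* (0.969) and the cadherin gene *CDH11* (0.968), with *cldni* at 0.955 and *sst2* at 0.944.

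*anxa11a* was most like *NEUROD6*, *VIM*, *GALNT18*, *sctr* and *SLC26A5*, with r between 0.964 and 0.968. *NEUROD6*, a neuronal transcription factor gene, averaged 65.5 ± 8.23 (SD, n = 3) in GFPlow and was at 0 in the means of all other groups. *SLC26A5*, an anion transporter family gene, had the broad pattern of *anxa11a* itself, with means of 2409 in GFPlow and 255 to 376 in the other groups. *anxa4* was least like the others, with r between 0.680 and 0.739 to them. Its closest were *MCF2* (0.928), *NPR3* (0.919), *WNT7B* (0.919), *areg* (0.918) and the opioid receptor gene *OPRD1* (0.913). *epcam*, the general epithelial adhesion gene, had r of -0.05 with *fabp6*, 0.31 with *anxa4*, -0.20 with *anxa11a* and -0.10 with *cldni*.

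Relatives of the 4 genes moved in part. Lists are given over genes with a mean of at least 10 over all 19 libraries, so a gene high in GFPlow alone can enter a list through GFPlow, and the counts without such genes stand beside those they change. Between GFPlow and GFPhigh, 7.83% of all genes tested were called higher and 7.86% lower. Of 15 other annexin genes 7 could be tested, and 3 were higher, 1 was lower and 3 were not called, with a median log2 difference of 0.54 against 0.04 over all genes. Without *anxa5b*, which passed only through GFPlow, 2 of 6 were higher and 1 was lower, with a median of 0.24. *anxa5b* was at 62.8, 84.4 and 69.9 normalized counts in GFPlow and at no more than 2.11 in GFPhigh. Its fitted log2 difference of 6.38 (standard error 1.33) is given as a description, since GFPlow alone brought it into the fit. *anxa13l* averaged 331 against 36.3 and *anxa3b* 44.9 against 3.96, both higher, while *anxa5a* was lower at 181 against 426. The second gene under the human symbol *ANXA11* (ENSDARG00000002632) averaged 707 against 737 (log2 difference -0.06, standard error 0.285, adjusted p = 0.91). How reads shared by these paralogs were counted was not examined here. Against β-cells only *anxa5b* of the 7 was higher in GFPlow and 2 were lower, beside 9.87% and 7.88% of all genes. Without *anxa5b* 0 of 6 were higher and 2 were lower. Against bihormonal cells 2 of the 7 were higher and 1 was lower, beside 8.67% and 7.87%, or 1 and 1 of 6 without *anxa5b*.

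Among binding partners of annexins, 6 of 14 were tested and 2 were higher in GFPlow than in GFPhigh. *s100a10b*, whose mammalian counterpart joins annexin A2 in a complex, was at 594, 618 and 483 normalized counts in GFPlow and at 2.42 to 18.9 in GFPhigh (log2 difference 5.62, standard error 0.989, adjusted p = 0.000361, edgeR). Its values over all 16 other libraries ended at 27.5. *CAPNS1*, the small subunit of calpain, was higher at 553 against 221. Its GFPlow range of 447 to 643 overlapped the 378 to 806 of β-cells and the 269 to 542 of bihormonal cells. Against β-cells 1 of the 6 partners was higher and 0 lower, beside 9.87% and 7.88% of all genes. Against bihormonal cells 1 was higher and 0 lower, beside 8.67% and 7.87%. *PDCD6*, the partner of annexin A11, averaged 205 against 158 and was not called.

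Of 41 other claudin genes 12 were tested, and 4 were higher and 0 lower in GFPlow than in GFPhigh, with a median log2 difference of 1.49. Without *cldn3d* and *cldnb*, which passed only through GFPlow, 2 of 10 were higher and 0 lower, with a median of 0.62. *cldn15a*, a gut claudin of fish, was at 528, 600 and 329 normalized counts in GFPlow and at 0 to 4.84 in GFPhigh (log2 difference 7.44, standard error 0.983, adjusted p = 2.09e-05, edgeR). A gene under the symbol *CLDN11* (ENSDARG00000020031) averaged 464 ± 132 (SD, n = 3) against 32.2 ± 17.2 (SD, n = 3), and *cldnb* 125 against 1.05. *cldn3d* was at 44.7, 102 and 137 in GFPlow and at 0 in all 3 GFPhigh libraries. These 4 were called higher against β-cells, where *cldn7b* was lower at 62.4 against 144. They were also called higher against bihormonal cells, together with *CLDN8* at 312 against 47.2. Without *cldn3d* and *cldnb*, 2 of 10 were higher and 1 was lower against β-cells, beside 9.87% and 7.88% of all genes. Against bihormonal cells 3 of those 10 were higher and 0 lower, beside 8.67% and 7.87%. With runs of neighbouring library numbers as a block, where GFPlow meets GFPhigh only through β-cell libraries, the counts of called annexins and claudins were 0 and 1 in place of 4 and 4. Of the scaffold and junction partners of claudins, 22 of 27 were tested, and 1 was higher (*CGNL1*, 124 against 21.2) and 1 was lower (*MAGI1*, ENSDARG00000003169, 231 against 555). The other 20 were not called, with a median over the list of -0.01.

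*fabp6* has relatives among fatty acid binding proteins and partners in bile acid transport. Of 11 other fatty acid binding protein genes only *FABP3* could be tested, and it was not called against GFPhigh, at 215 against 306. *FABP3* was called lower in GFPlow than in bihormonal cells (log2 difference -1.41) and was not called against β-cells (-0.61). Of 20 bile acid genes 4 were tested, of which *gpbar1*, a bile acid receptor gene, was lower in GFPlow at 33.0 against 237 (log2 difference -2.86, standard error 0.557, adjusted p = 0.000949, edgeR). Against β-cells 1 of the 4, the transporter gene *abcc3*, was higher (371 against 170), and against bihormonal cells *abcc3* was higher and *gpbar1* was lower. *SLC10A2*, the bile acid importer of the ileum, had 0 reads in all 3 GFPlow libraries.

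**Figure D3:**
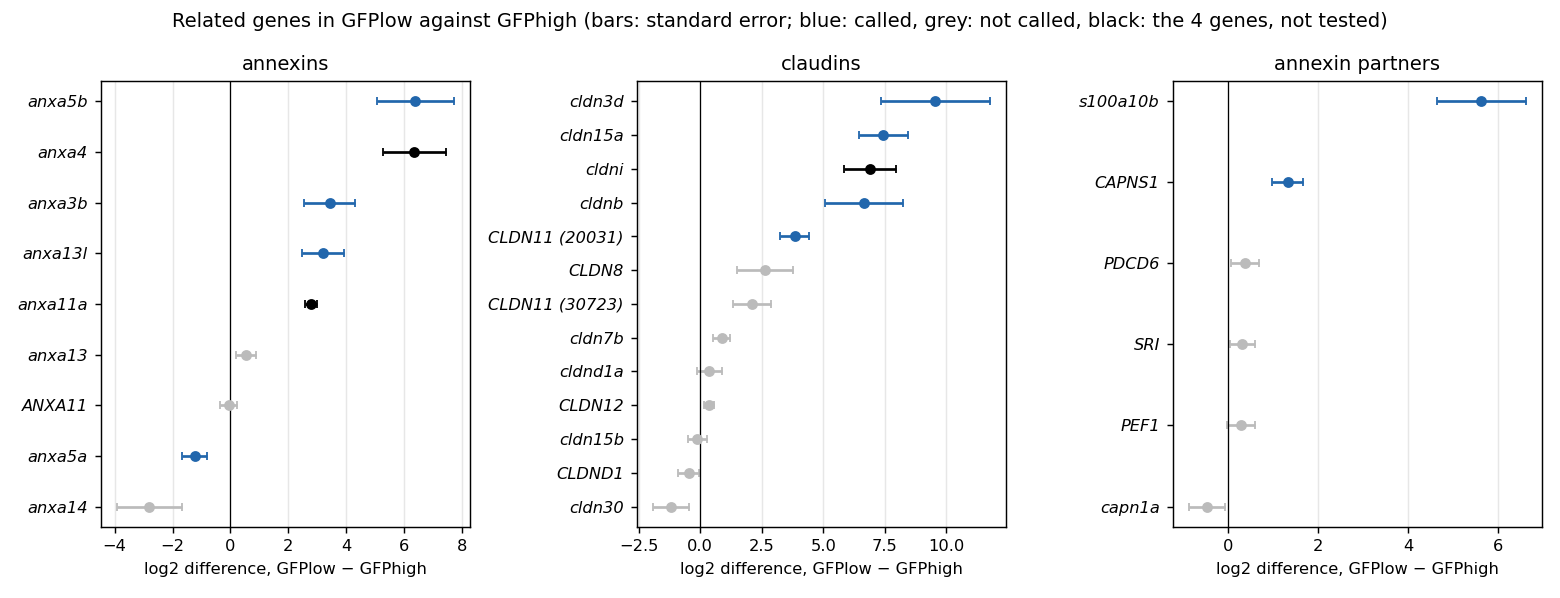
Log2 difference between GFPlow and GFPhigh on the x axis with its standard error, for tested annexins, claudins and annexin partners, in blue where called, grey where not called and black for the 4 genes, which were not tested there. Beside *anxa4* and *anxa11a* 3 annexins were called higher and 1 lower, and 4 claudins and 2 annexin partners were called higher. Of these, *anxa5b*, *cldn3d* and *cldnb* passed the filter only through GFPlow. Genes that share a symbol are told apart by the end of their gene ID.

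General epithelial genes did not follow the 4. Of 27 pan-epithelial markers 17 were tested between GFPlow and GFPhigh, and 1 was higher, 3 were lower and 13 were not called, with a median log2 difference of -0.28. *epcam* averaged 1259 ± 467 (SD, n = 3) in GFPlow and 1259 ± 782 (SD, n = 3) in GFPhigh. *cdh1*, the epithelial cadherin, averaged 209 in GFPlow, 356 in GFPhigh, 381 in bihormonal cells and 651 in β-cells. *krt8*, a keratin of simple epithelia, averaged 984, 1384, 952 and 2302 in the same groups. *cdh1* and *krt8* were lower in GFPlow than in β-cells by log2 differences of -1.64 (standard error 0.295, adjusted p = 0.000218, edgeR) and -1.23 (standard error 0.275, adjusted p = 0.00199, edgeR). *CDH17*, a gut cadherin, was the marker called higher, at 123 against 5.84, and it passed the filter only through GFPlow. Without *CDH17* 0 of 16 were higher and 3 were lower. Without GFPlow replicate 1 none of the 17 was called.

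Markers of other epithelial cells moved with the 4 genes in part. The duct list of 27 genes summed to 10209 to 10772 normalized counts in GFPlow, 5421 to 6326 in GFPhigh, 3589 to 5822 in bihormonal cells and 6180 to 11277 in β-cells. *SLC26A3*, an anion exchanger gene, gave most of the GFPlow sum, at 6898, 7174 and 6754 against 18.3 to 1130 elsewhere (log2 difference to GFPhigh 3.91, standard error 0.542, adjusted p = 3.41e-05, edgeR). Of the defining duct markers, *CFTR* was at 33.8, 74.7 and 45.6 in GFPlow against 0 to 6.97 elsewhere, and *ONECUT1* at 18.1, 41.7 and 8.56 against 0 to 7.69. *nkx6.1* was at 2.42, 10.7 and 7.13, above the 0 of GFPhigh but within the range of the 19 libraries, which reached 127. Of a pair of *SOX9* genes, 1 (ENSDARG00000043923) had 0 reads in all 3 GFPlow libraries and 0 to 24.3 normalized counts elsewhere. The other was at 39.9 to 47.1 in GFPlow, under the 91.6 to 180 of GFPhigh. That range lay above the 0 to 13.8 of β-cells and within the 16.7 to 353 of bihormonal cells. Of 13 duct markers tested between GFPlow and GFPhigh, 2 were higher and 2 were lower, with a median log2 difference of -0.59.

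The acinar list of 30 genes summed to 7108, 4563 and 1014 in GFPlow replicates 1, 2 and 3 and to 837 to 4005 elsewhere. Of its 20 tested genes, 10 were higher and 1 was lower in GFPlow than in GFPhigh, or 7 and 1 of the 16 that pass without GFPlow. *prss1*, a trypsinogen, was at 430, 72.7 and 7.13 in those replicates, a 60.3-fold range, while the 4 genes ranged 1.15 to 1.28-fold over the same libraries. The defining genes *prss59.1* (691, 529 and 12.8), *ela3l* (396, 278 and 18.5) and *ela2* (214, 162 and 11.4) were also lowest in replicate 3. Not all acinar genes varied so. *pdia2*, which passed the filter only through GFPlow, was at 165, 268 and 184 in GFPlow against 0 to 5.26 elsewhere. *CPB1* was at 418, 463 and 202 against 2.66 to 378. The gene called lower was *amy2al1*, at 241 against 969 in GFPhigh (adjusted p = 0.00153, edgeR). Its values were 129 to 324 in GFPlow and 563 to 2501 elsewhere. *PTF1A*, a defining acinar transcription factor, had 0 reads in all 3 GFPlow libraries and at most 0.886 normalized counts elsewhere.

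The enterocyte list of 27 genes summed to 2183 to 2857 in GFPlow and 285 to 1210 elsewhere. *cdx1b*, an intestinal transcription factor gene, gave most of it, at 2519, 1877 and 1718 against 1.11 to 50.1. Outside GFPlow, as a percent of its GFPlow mean, *cdx1b* ran 0.135 to 15.3 times the *sst2* percent. It exceeded that percent in 9 of 16 libraries, on at most 60 reads a library. *MTTP*, which loads lipid onto lipoproteins, was at 82.1, 156 and 65.6 in GFPlow and at most 1.12 elsewhere, and passed the filter only through GFPlow. The defining enterocyte marker *FABP2* had 0 reads in all 19 libraries, and *apoa4b.1* had 0 in GFPlow and at most 0.886 normalized counts elsewhere. A defining marker under the symbol *SLC15A1* (ENSDARG00000044528) was at 60.4, 121 and 120 in GFPlow. It was at 2.36 to 51.6 in GFPhigh, 18.6 to 96.6 in bihormonal cells and 38.5 to 382 in β-cells. *VIL1*, a microvillus gene, was lower in GFPlow than in GFPhigh at 51.6 against 578 (log2 difference -3.50, standard error 0.472, adjusted p = 2.64e-05, edgeR). Of liver markers, *fabp10a* had 0 reads in GFPlow and at most 2.42 normalized counts elsewhere. *tfa*, the transferrin gene, was at 208, 19.4 and 118 against 0 to 6.06 elsewhere, and passed the filter only through GFPlow. The other 2 liver markers tested were lower in GFPlow than in GFPhigh. *c3a.1* was at 22.7 against 260 (adjusted p = 0.00257, edgeR) and *TTR* at 2.01 against 12.6 (adjusted p = 0.0145, edgeR). Against β-cells 1 of those 2 was higher and 1 was lower. Of goblet and tuft cell markers, *SPDEF* had 0 reads in GFPlow and at most 0.835 normalized counts elsewhere. *SOX4* (ENSDARG00000098834) was higher in GFPlow than in GFPhigh at 162 against 21.98 (adjusted p = 0.0185, edgeR) and *foxa3* lower at 911 against 2106 (adjusted p = 0.00339, edgeR). The skin marker *cyt1* had 0 reads in GFPlow and at most 2.32 normalized counts elsewhere, and *krt4* was at 7.25 to 31.4 against 0 to 39.2 elsewhere. The mesenchyme list summed to 472 to 553 in GFPlow and 70.8 to 346 elsewhere, the leukocyte list to 47.5 to 863 and 131 to 3336, and the endothelium list to 9.70 to 30.2 and 11.5 to 52.5. Of the mesenchyme list, *FBLN1* (122 to 221 in GFPlow) and *TAGLN* (121 to 285) passed the filter only through GFPlow. The defining mesenchyme markers *col1a1a*, *COL1A2*, *PDGFRA*, *PDGFRB* and *DCN* were at 7.25 or less in GFPlow. Whether cells of these lists gave part of the 4 genes' counts was not tested.

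**Figure D4:**
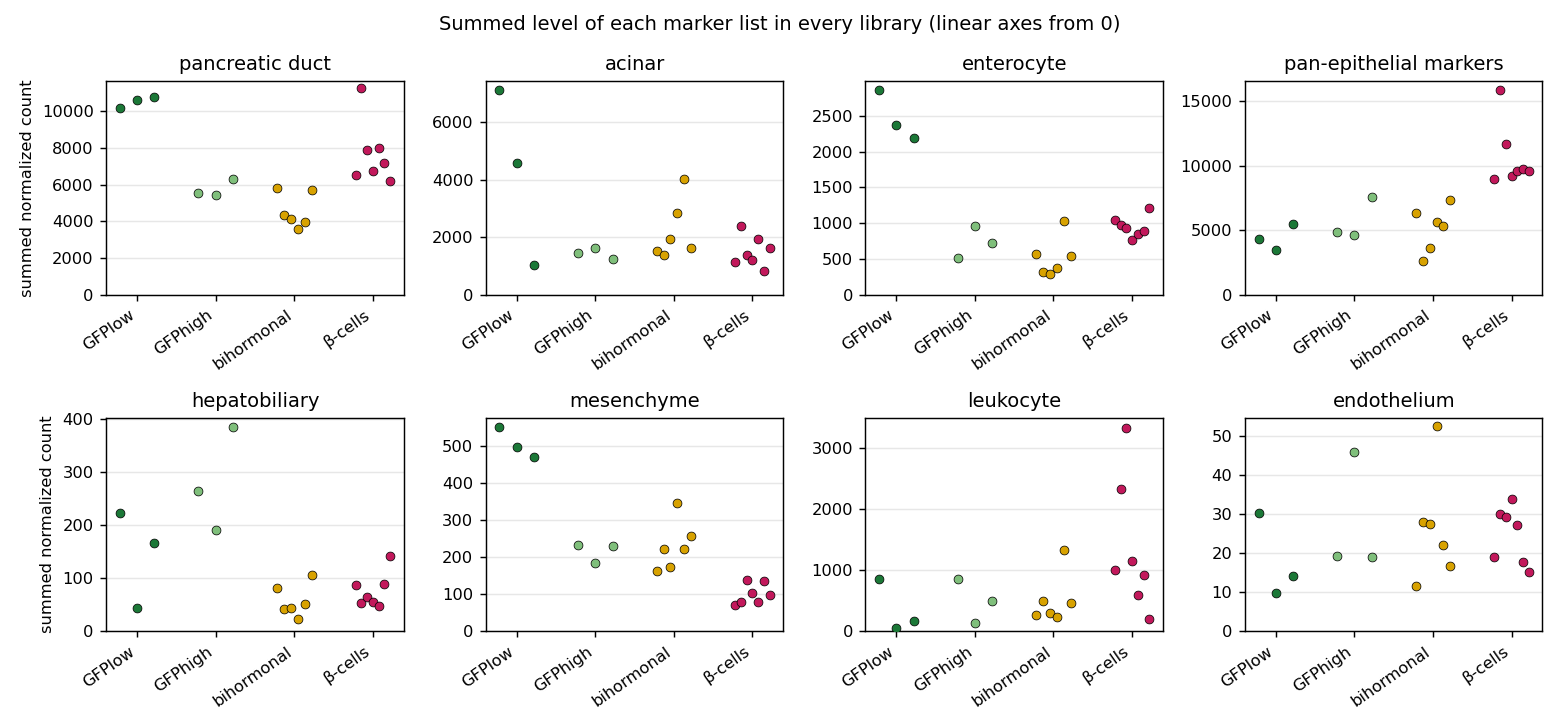
Summed normalized counts of 8 marker lists, with 1 point per library by group on linear axes from 0. The duct, enterocyte and mesenchyme sums of GFPlow lie above those of GFPhigh, the acinar sum ranges from 1014 to 7108 over the GFPlow libraries, and the pan-epithelial sum is highest in β-cells. *SLC26A3* gave most of the GFPlow duct sum and *cdx1b* most of the enterocyte sum, so these sums do not stand for their lists as a whole. The mesenchyme sum includes *FBLN1* and *TAGLN*, which passed the filter only through GFPlow. Duct sums of β-cells reach 11277.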

How the data were processed

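RNA of 19 pools of sorted cells was amplified by SMART-Seq2, sequenced, aligned by the authors to GRCz11 with STAR and counted per gene with featureCounts (versions not given in the sources used here). The authors deposited raw counts, and groups were taken from the sample labels. Amplified reads are not independent molecules, so floors (3 counts) cover counting error only. All 19 libraries entered a single edgeR 4.0.16 quasi-likelihood fit in R 4.3.3, with TMM scaling and 1 mean per group. A gene was tested where its normalized counts averaged 10 or more (14693 genes), and p-values were adjusted over all of them. The biological coefficient of variation was 37.3%. The test was tried on simulated data. The 4 genes and all lists were chosen with earlier results of these data known, and general knowledge gave the list members.

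The genes named are the 4, up to 4 called per list and direction with the smallest p, defining markers and the 5 most alike genes. Some genes under this rule are not reported here. Other names in the text were chosen after their values were seen. Symbols come from a table matching 29178 of 31901 IDs. Alternatives were the DESeq2 1.42.0 Wald test, DESeq2 size factors, library totals, TMM with hormone and mitochondrial genes left out, no filter, filterByExpr, only the groups compared, replicate or library set blocks, only shared sets, a fold above 2 tested inside the model and each library left out. Library sets are runs of neighbouring library numbers. Sequences and coordinates were not used here.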

Additional observations from a re-analysis of the deposited data

Results flagged for a closer look

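For each of the 4 genes in bihormonal cells and in β-cells, 8 sets of libraries in all, the highest and lowest library were compared with their nearest neighbour. In 2 sets a library stood apart. The rule's chance rate of about 1 in 20 holds for normally distributed values, which the low counts of *fabp6* and *cldni* need not be. No excess over chance is therefore read from the 2. *fabp6* in bihormonal replicate 6 was at 19.2 normalized counts with the nearest library at 6.42, a gap of 0.666 of the group's range, and *cldni* in β-cell replicate 6 was at 24.8 with the nearest at 10.7, a gap of 0.586. Bihormonal replicate 6 also held the highest *sst2*, *anxa4* and *cldni* of its group, and β-cell replicate 6 the highest *sst2* and *sst1.1* of β-cells. The glucagon genes *gcga* (64986) and *gcgb* (26472) were highest of the group in bihormonal replicate 6 too, and *sst1.1* was lowest there (2887150).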

How the results depend on the processing

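Of 703 differences of the 4 genes under an alternative, 653 kept direction and side of the threshold, or moved by less than their spread, and 8 reversed. These counts include *fabp6*, which entered the fit only through GFPlow. For bihormonal against β-cells, *cldni* lost its call in 3 of 30 alternatives. These were only shared sets (adjusted p = 0.252, edgeR), a fold above 2 tested inside the model (adjusted p = 0.0543, edgeR) and the omission of bihormonal replicate 6 (adjusted p = 0.0639, edgeR). *fabp6*, which was not tested, is left out here. For GFPhigh against β-cells, 1 gene called (*cldni*) became 2, with *anxa4*, under 6 alternatives. These were the DESeq2 Wald test, library totals, no filter, only the 2 groups, the library set block and shared sets. As single libraries were left out, 1 to 2 were called. For bihormonal against GFPhigh cells 0 were called in every alternative run. The median log2 difference of the 4 genes in GFPlow was 6.62 against GFPhigh (7.17 by library totals, 7.95 with the set block, 6.42 to 6.84 as single libraries were left out), 6.96 against β-cells (8.52 with the set block, 8.55 in shared sets, 6.79 to 7.16) and 6.43 against bihormonal cells (6.21 to 7.42).

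Between GFPlow and GFPhigh, calls among annexins (4) fell to 0 with the set block and 3 to 4 as single libraries were left out, and among claudins (4) to 1 and 4 to 5. The main counts include *anxa5b*, *cldn3d* and *cldnb*, which passed the filter only through GFPlow. Annexin partners (2) gave 1 with the set block and 1 with the fold tested inside, and 1 to 2 left out, without GFPhigh replicate 2 or GFPlow replicate 3 being 1. Junction partners (2) gave 4 by library totals, 1 with 2 groups, 1 with the replicate block, 1 with the set block, 0 with the fold tested inside and 1 to 2 left out, without GFPlow replicate 1 or 2 being 1. Bile acid genes (1) gave 2 by totals and 0 with the set block, with 1 throughout left out. Pan-epithelial markers (4) gave 2 by totals, 2 with 2 groups, 0 with the set block, 0 with the fold tested inside and 0 to 4 left out, being 0, 1, 1 and 2 without GFPlow replicates 1 and 2 and GFPhigh replicates 2 and 3. With the set block, bihormonal replicates 1 to 3 and GFPlow replicate 1 are alone in their sets and do not enter group differences, and GFPlow meets the other groups only through β-cells.

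Reversed differences were those of *anxa11a* by library totals (-0.12 for bihormonal against β-cells, -0.10 for bihormonal against GFPhigh, -0.024 for GFPhigh against β-cells), *fabp6* (-0.28) and *anxa4* (-0.17) for bihormonal against GFPhigh with the replicate block, *anxa4* for bihormonal against β-cells with the set block (0.20), and *fabp6* for bihormonal against GFPhigh without GFPhigh replicate 2 (-0.17) or bihormonal replicate 6 (-0.55), in a range of -0.55 to 0.71 as single libraries were left out. The causes were not tested. Library totals moved the median of all genes by -0.64 for bihormonal against β-cells, -0.39 for GFPhigh against β-cells, -0.24 for bihormonal against GFPhigh, 0.55 for GFPlow against GFPhigh, 0.16 for GFPlow against β-cells and 0.79 for GFPlow against bihormonal cells, and the share of higher calls between GFPlow and GFPhigh from 49.9% to 83.9%. Same-numbered libraries did not deviate together (r over 0.1 in 2 of 21 pairs, from -0.239 to 0.108), so the numbers were not taken as pairs. For pairs of libraries in the same library set r ran from -0.146 to 0.440, and in different sets from -0.417 to 0.337. The highest was between bihormonal replicate 4 and β-cell replicate 1. The main fit had no term for library sets. Outside GFPlow, *fabp6* rests on at most 23 reads a library, which limits its differences there.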
